A study of Rattus norvegicus with 40 samples.

Results

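Polysome RNA of refed adult rat liver was compared between rats that had received rapamycin and rats that had received DMSO, the solvent. The arrays were chosen by their titles, which name adult liver polysomes of the fasted/refed model: 6 of the 40 arrays of the series, 3 from rapamycin livers and 3 from DMSO livers. All were Sprague Dawley rats of 125 to 150 g, fasted for 48 h, injected intraperitoneally, given food 1 h later and killed after 3 h of refeeding. The rapamycin rats received 250 ug per 100 g of body weight, and both groups shared the fast, the injection and the meal. No fasted and no uninjected rats enter the comparison, so it shows rapamycin against its solvent during refeeding and not the response to food. The replicates are numbered biological replicates, called rapamycin 1 to 3 and DMSO 1 to 3 here, and the values of a group are given in that order. Per the labels' protocols the polysome RNA was extracted after pooling of preparations, with no word on which ones were joined, and each replicate number was counted as 1 liver. Total RNA of 6 arrays with the same treatments and numbers, polysome RNA of 6 livers taken 24 h after partial hepatectomy (3 rapamycin at the same dose, 3 DMSO) and polysome RNA of 8 fetal livers (4 given 50 ug of rapamycin and 4 DMSO on gestation day 19, taken on day 20) served for comparison.

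Polysomes are mRNAs loaded with several ribosomes, so the RNA recovered from them is enriched for transcripts that are being translated. Food and insulin activate the kinase complex mTORC1, which phosphorylates the translation repressor 4E-BP1 and the ribosomal protein S6 kinases and favours translation of mRNAs that begin with a 5′ terminal oligopyrimidine (TOP) tract, mainly those of ribosomal proteins and elongation factors. Rapamycin with its binding protein FKBP12 inhibits mTORC1. Refeeding also shuts off fasting genes of the liver through insulin, among them Pck1, the gluconeogenic enzyme PEPCK, and Igfbp1, an insulin-repressed binding protein of the insulin-like growth factors.

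The TOP tract was looked for at 19 ribosomal protein and other TOP mRNAs named here, of which 18 had a RefSeq transcript start in the rat assembly GRCr8. It was found at 6, and 12 had no match: Rps15a, Rps28, Rps6, Rpl36, Rpl3, Rpl13a, Rps19, Tpt1, Ssr2, Eef1g, Rack1 and Eef2. The 6 with a match come first below, followed by 4 without, Rps15a, Rps28, Rps6 and Tpt1, whose values are given further on. Each is shown as 30 bases, 5′ to 3′, that start 10 bases before that start. Capitals mark a C followed by at least 4 pyrimidines that begins within 3 bases of it, and sequences without capitals have no such run there.
Rps7 (chr6:50999426-50999455, minus strand): agagctgtgtCTCTTTCTaagccggcactc
Rps21 (chr3:187724028-187724057, plus strand): agccacttcCTTTCTgtgttctccgtagac
Rpl27a (chr1:172974563-172974592, plus strand): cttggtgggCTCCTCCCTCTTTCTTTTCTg
Rpl35a (chr11:81235002-81235031, minus strand): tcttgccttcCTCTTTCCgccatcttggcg
Rplp0 (chr12:46718371-46718400, minus strand): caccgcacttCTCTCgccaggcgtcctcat
Eef1a1 (chr8:88225050-88225079, minus strand): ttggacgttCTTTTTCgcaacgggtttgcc
Rps15a (chr1:181860265-181860294, minus strand): ttttctttccacagtcaccatggtgcgaat
Rps28 (chr7:15311314-15311343, minus strand): ccctgctcacgtgactcctctccgctagat
Rps6 (chr5:106420521-106420550, minus strand): ctcctaggcggtcggctgtgtcaagatgaa
Tpt1 (chr15:57566134-57566163, plus strand): ctccccccgagcgccgctccggctgcaccg
The same letters were found at 11.1% of the 27457 rat promoters in the RefSeq table, searched on the transcribed strand. They were found at 33 of the 58 ribosomal protein genes with a start sequence there.

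Values are log2 intensities of transcript clusters, the gene-level probe sets of the array. Of these, 10860 carried a symbol and passed a filter on low signal, standing for 10203 named genes. Medians of the 6 arrays lay between 7.09 and 7.13. The normalization made by the authors, RMA, equalises the arrays, so a difference common to all polysome mRNAs cannot be seen. The hepatocyte marker albumin (Alb) was at 14.28, 14.23 and 14.27 in the rapamycin livers and at 14.22, 14.22 and 14.27 in the DMSO livers.

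One liver of each treatment stood apart from the others before any comparison. The first principal component held 58.6% of the variance of the 6 arrays and placed rapamycin 2 at 18.1 and DMSO 3 at 38.2, against −18.1 to −10.3 for the other 4 livers. The second held 21.0% and placed the rapamycin livers at −8.9, −20.5 and −5.6 and the DMSO livers at 11.2, 10.9 and 12.8. Of the 20 genes with the largest loadings on the first component, 18 were on the side of rapamycin 2 and DMSO 3, and for 17 of these both livers lay above the other 4. Lipocalin 2 (Lcn2), an acute phase protein that binds bacterial siderophores, was at 9.39, 13.63 and 10.36 in the rapamycin livers and at 8.32, 8.01 and 13.76 in the DMSO livers. The chemokine Ccl4 was at 7.85, 11.73 and 7.90 in the rapamycin livers and at 7.53, 7.80 and 11.82 in the DMSO livers. The interferon-induced chemokine Cxcl10 gave the same order, with 8.61, 11.90 and 8.63 in the rapamycin livers and 8.46, 7.95 and 11.74 in the DMSO livers. Total RNA carried it too: Lcn2 was at 8.71, 13.59 and 8.89 in total RNA of the rapamycin livers and at 8.99, 9.18 and 13.74 in that of the DMSO livers.

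On the low side of the same pair were Cyp7a1, the rate-limiting enzyme of bile acid synthesis, and Arrdc3, an arrestin-domain protein. Cyp7a1 was at 12.72, 10.35 and 12.75 in the rapamycin livers and at 12.77, 12.60 and 9.13 in the DMSO livers. G6pc1, the glucose-6-phosphatase that releases glucose from the liver, was at 9.68, 7.70 and 9.74 in the rapamycin livers and at 10.01, 9.98 and 7.13 in the DMSO livers. These genes separate livers within each treatment, not the treatments. The group means of G6pc1 were equal, 9.04 in the rapamycin livers and 9.04 in the DMSO livers, with SDs of 1.16 and 1.66. The acute phase list (27 members) had mean levels of 12.90, 13.45 and 12.70 in the rapamycin livers and of 12.51, 12.60 and 13.41 in the DMSO livers. Lead results below are therefore also given without rapamycin 2 and DMSO 3, an alternative chosen after seeing the data.

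**Figure D1:**
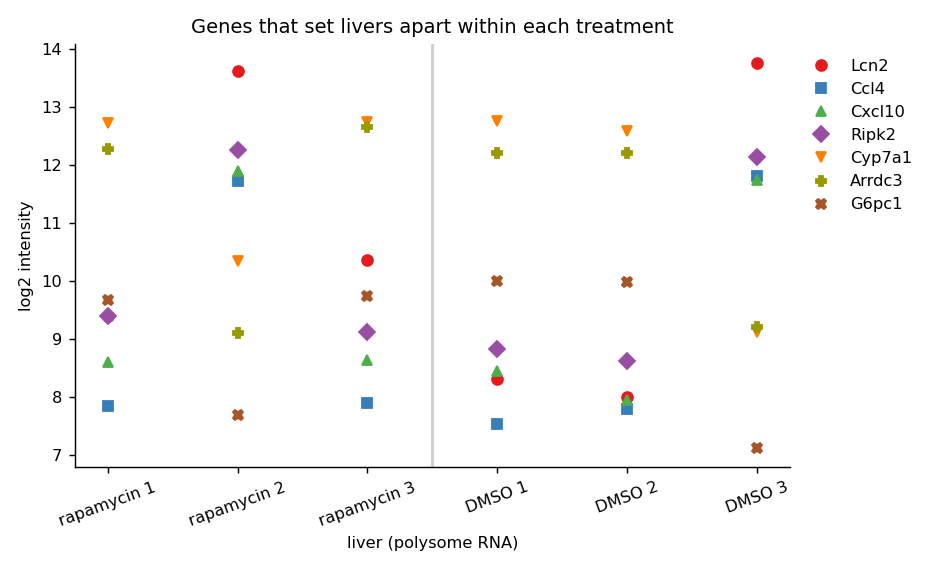
Log2 intensity (y axis) of 7 genes in polysome RNA of each refed liver (x axis, 3 rapamycin and 3 DMSO livers; 1 symbol per gene). Lcn2, Ccl4, Cxcl10 and Ripk2 are highest, and Cyp7a1, Arrdc3 and G6pc1 lowest, in rapamycin 2 among the rapamycin livers and in DMSO 3 among the DMSO livers.

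No transcript cluster passed an adjusted p of 0.05 between rapamycin and DMSO in polysome RNA (limma, Benjamini-Hochberg; 0% called, smallest adjusted p 0.440). At an unadjusted p under 0.05, 472 were higher (4.35%) and 513 lower (4.72%) with rapamycin. The 3 rapamycin livers all lay above the 3 DMSO livers at 941 clusters (8.66%) and all below at 996 (9.17%). Without rapamycin 2 and DMSO 3, 0 clusters passed the adjusted threshold, and 570 were higher (5.25%) and 526 lower (4.84%) at the unadjusted one. An exact permutation test of 3 against 3 livers cannot go below p = 0.1, so single genes rest on the fit across all clusters. All gene differences between the treatments in polysome RNA given below are values that did not pass the adjusted threshold.

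Among the genes with the smallest unadjusted p that were higher with rapamycin were enzymes of hepatocytes. The carboxylesterase Ces1f was at 11.55, 11.45 and 11.48 in the rapamycin livers and at 10.70, 10.80 and 10.58 in the DMSO livers, a difference of 0.80 ± 0.10 (SE; adjusted p = 0.440 in limma). The aldo-keto reductase Akr7a3, which reduces aflatoxin dialdehyde in rat liver, was at 12.65, 12.72 and 12.56 in the rapamycin livers and at 11.58, 11.72 and 11.97 in the DMSO livers, a difference of 0.89 ± 0.11. In both genes the groups are separated by more than the spread within either, and the livers that stand apart lie with their own treatment. Their choice by the smallest p favours such separation. The glycine transporter Slc6a9 was higher by 0.88 ± 0.15, the sphingomyelin synthase Sgms2 by 0.78 ± 0.13, and Ugp2, which makes UDP-glucose for glycogen, by 0.48 ± 0.09. Reep6 had the tightest groups of the 24 genes, at 13.73, 13.74 and 13.73 in the rapamycin livers and 13.49, 13.49 and 13.49 in the DMSO livers, a difference of 0.25 ± 0.04. The others of the 12 were Ces1c, another carboxylesterase, and Ccdc28a, Neu2, Adgrg2, Pck1 and Nek2. None of the 12 was lower with rapamycin in total RNA. There Ces1f differed by 0.88, Akr7a3 by 1.07, Slc6a9 by 0.77, Sgms2 by 0.92, Ugp2 by 0.61 and Reep6 by 0.11.

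Among those lower with rapamycin, Cry1, a repressor of the circadian clock that also restrains gluconeogenesis, had the smallest p. Cry1 was at 8.76, 8.88 and 8.70 in the rapamycin livers and at 9.71, 10.25 and 10.11 in the DMSO livers, a difference of −1.24 ± 0.16 (SE; adjusted p = 0.440 in limma). With any 1 liver left out the difference of Cry1 lay between −1.40 and −1.13. The remaining 11 held 2 ribosomal proteins (Rpl36, Rps7), HSP90 cochaperones and partners (Stip1, Chordc1, Cacybp), the endoplasmic reticulum protein Lrrc59, the dynein light chain Dynll1, and Dph5, which helps make the diphthamide of elongation factor 2. The cochaperone Stip1 was at 11.40, 11.36 and 11.37 in the rapamycin livers and at 11.80, 11.87 and 11.79 in the DMSO livers, a difference of −0.44 ± 0.07. Chordc1, an HSP90-binding protein, was at 10.61, 10.51 and 10.54 in the rapamycin livers and at 11.08, 11.26 and 11.46 in the DMSO livers. Its difference was −0.72 ± 0.12. Naa20, Armc1 and Liph make up the 12. In total RNA Cry1 differed by −0.95, Stip1 by −0.48 and Chordc1 by −0.57. Rpl36 (0.41), Rps7 (0.34) and Cacybp (0.04) were not lower there.

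**Figure D2:**
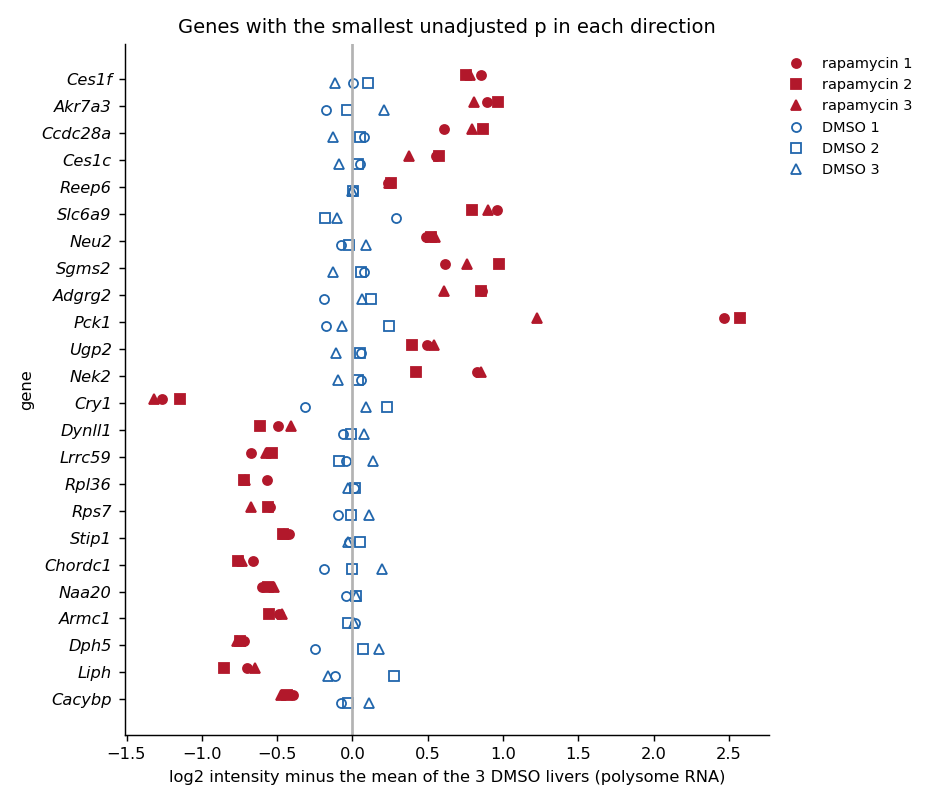
Log2 intensity in polysome RNA minus the mean of the 3 DMSO livers (x axis) for the 12 genes with the smallest unadjusted p in each direction (y axis), with filled symbols for rapamycin livers and open symbols for DMSO livers, 1 shape per liver number. The treatments do not overlap at any of the 24 genes, which their choice by the smallest p in these same livers favours. Pck1, with 11.83 ± 0.75 in rapamycin and 9.74 ± 0.22 in DMSO livers (SD), has the widest rapamycin group.

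By size alone, 22 clusters with a single symbol were at least 1 higher on the log2 scale with rapamycin and 17 at least 1 lower. The livers were separated at 8 and 7 of them (8.66% and 9.17% of all clusters tested), which choice by size favours. The following genes were chosen after their values were seen. Ephx2, the soluble epoxide hydrolase, had the largest positive difference at 2.47 ± 0.84 (SE), with 10.39, 10.89 and 10.47 in the rapamycin livers and 7.43, 10.21 and 6.72 in the DMSO livers. DMSO 2 was near the rapamycin livers and the other two DMSO livers were low. H19, an imprinted non-coding RNA, had the largest negative one at −2.06 ± 0.43, with 7.70, 7.11 and 8.10 in the rapamycin livers and 10.21, 8.77 and 10.12 in the DMSO livers. A second H19 cluster differed by −1.41 ± 0.32. The estrogen receptor Esr1 was at 9.10, 9.90 and 8.88 in the rapamycin livers and at 7.86, 7.97 and 7.93 in the DMSO livers, a difference of 1.38 ± 0.26. Id1, an inhibitor of helix-loop-helix transcription factors, differed by −1.20 ± 0.29, with 9.27, 8.44 and 9.06 in the rapamycin livers and 9.84, 9.92 and 10.63 in the DMSO livers.

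The mRNAs of cytosolic ribosomal proteins had the highest share of members lower in rapamycin polysomes at the unadjusted threshold among the 33 lists examined. Of 69 tested members, 1 transcript cluster each, 67 were below 0, 41 were lower at an unadjusted p under 0.05 (4.72% of all clusters) and 0 higher, and at 45 the 3 rapamycin livers lay below the 3 DMSO livers (9.17% of all). Their median difference was −0.27, against 0.00 over all clusters. None passed the adjusted threshold. The mean level of the list was 12.24, 12.22 and 11.94 in the rapamycin livers and 12.34, 12.37 and 12.52 in the DMSO livers. The groups of livers do not overlap, and rapamycin 3 is the lowest. Without rapamycin 3 the count lower was 22 (2.99% of all), and without both rapamycin 2 and DMSO 3 it was 33 (4.84% of all) with a median of −0.26.

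Rps15a, a protein of the small subunit, was at 10.41, 10.44 and 10.20 in the rapamycin livers and at 10.82, 10.85 and 10.99 in the DMSO livers, a difference of −0.54 ± 0.11 (SE). Rps28, another small subunit protein, was at 13.05, 13.05 and 12.77 in the rapamycin livers and at 13.30, 13.43 and 13.43 in the DMSO livers, a difference of −0.43 ± 0.09. Both genes place every rapamycin liver below every DMSO liver, but they were named for their small p within the list, which favours this. Of the ribosomal proteins printed above with a tract, Rpl27a differed by −0.45, Rpl35a by −0.34, Rps21 by −0.33, Rplp0 by −0.27 and Rps7 by −0.24. Rps6, the protein phosphorylated by the S6 kinases, was at 12.75, 12.71 and 12.50 in the rapamycin livers and at 12.92, 12.91 and 13.13 in the DMSO livers, a difference of −0.34 ± 0.10. Its groups do not overlap either.

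Ribosomal protein genes have many near-identical processed copies, and 51 of the 69 had more than 1 tested cluster, up to 12 for a gene. Of all 207 clusters of these genes 199 were below 0. The cluster of Rps7 among the 12 genes above was at −0.59 and the brightest one, used in the list, at −0.24. Rpl36 had 9 clusters between −0.67 and −0.23. Rps10 was the exception by size: its brightest cluster was at 0.50, with 12.89, 12.72 and 11.62 in the rapamycin livers and 11.74, 11.87 and 12.12 in the DMSO livers, and its clusters ran from −0.37 to 0.50. Which copy each cluster measures was not tested.

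Medians with and without the tract were close. Among the 8839 tested clusters of other genes that had a start sequence, the 998 with the tract had a median difference of −0.01 and the 7841 without it 0.00. Within the ribosomal proteins the medians were −0.31 for the 33 with the tract and −0.27 for the 25 without, on RefSeq starts that may lie some bases from the start used in liver. Of 24 other known TOP mRNAs, 18 were below 0 with a median of −0.12, 5 were lower at the unadjusted threshold (4.72% of all clusters) and 0 higher (4.35% of all). The median was −0.04 without DMSO 3 and −0.07 without both rapamycin 2 and DMSO 3. The lower ones include 4 with no tract at their RefSeq start: Tpt1 (translationally controlled tumour protein) at −0.33 ± 0.09 (SE), Ssr2 (a translocon-associated protein) at −0.35 ± 0.11, Eef1g (a subunit of elongation factor 1) at −0.29 ± 0.10 and Rack1 (a scaffold on the small ribosomal subunit) at −0.20 ± 0.07. The elongation factor Eef1a1, whose start is printed above, differed by 0.04 ± 0.05: it was at 13.98, 13.88 and 13.90 in the rapamycin livers and at 13.85, 13.85 and 13.94 in the DMSO livers. Eef2, which moves the ribosome along the mRNA, differed by 0.13 ± 0.08, with overlapping livers.

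**Figure D3:**
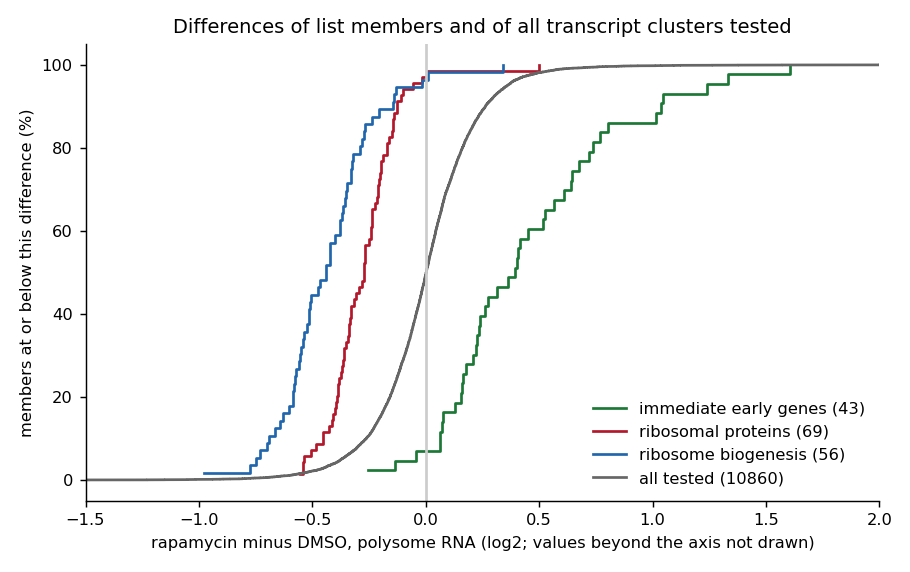
Cumulative share (y axis, percent) of members at or below each difference between rapamycin and DMSO livers in polysome RNA (x axis, log2) for 43 immediate early genes, 69 ribosomal proteins, 56 ribosome biogenesis genes and all 10860 clusters tested. The curves of ribosomal proteins (median −0.27) and ribosome biogenesis genes (median −0.44) lie left of all clusters (median 0.00), and that of the immediate early genes (median 0.39) lies right.

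Total RNA with the same treatments and numbers put the ribosomal protein mRNAs on the other side. In total RNA 0 clusters passed the adjusted threshold (smallest adjusted p 0.573), 603 were higher (5.55%) and 202 lower (1.86%) at the unadjusted one, and 67 of the 69 ribosomal proteins were above 0 with a median of 0.27. In total RNA 2 members were higher at the unadjusted threshold and 0 lower. Mean levels in total RNA were 11.92, 12.14 and 11.70 in the rapamycin livers and 11.47, 11.90 and 11.55 in the DMSO livers, with overlap. Polysome and total RNA arrays of the same treatment and replicate number were taken as 1 liver, which no title states. Deviations from the group means correlated at 0.46 to 0.82 between such arrays. The rapamycin effect on polysome minus total RNA, taken within each number, was below 0 for all 69. Its median was −0.59 against −0.05 over all clusters. Of the 69, 58 had a lower effect on polysomes at the unadjusted threshold (6.67% of all clusters). No cluster passed the adjusted threshold in that difference (0% called, smallest adjusted p 0.535), and 909 had an unadjusted p under 0.05. Without rapamycin 2 and DMSO 3 the median was −0.41 and 19 members passed the unadjusted threshold (0.626% of all). Leaving out DMSO 2 brought the count over all clusters past the adjusted threshold to 1714.

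Rps28 had the smallest p in that difference: its effect on polysome minus total RNA was −0.67, with −0.43 in polysome RNA and 0.24 in total RNA. In total RNA it was at 12.55, 12.65 and 12.27 in the rapamycin livers and at 12.07, 12.54 and 12.15 in the DMSO livers. The other mRNAs of the 6 smallest p were all of ribosomal proteins: Rpl36, Rpl37a, Rpl13a, Rpl35a and Rps19, with effects of −0.86, −0.74, −0.74, −0.78 and −1.17. Lists outside the TOP mRNAs had negative medians in the same difference. Oxidative phosphorylation subunits (67 members) had a median of −0.44 with 38 lower at the unadjusted threshold (6.67% of all clusters). Mitochondrial ribosomal proteins (67) had one of −0.41 with 24 lower, and proteasome subunits (40) one of −0.31 with 8 lower. Their medians in polysome RNA were −0.02, −0.10 and 0.00, and in total RNA 0.42, 0.32 and 0.31. In polysome RNA 48 of the 67 mitochondrial ribosomal proteins were below 0. At the unadjusted threshold 10 were lower (14.9%, against 4.72% of all clusters) and 1 higher (1.49%, against 4.35%). At 24 the rapamycin livers lay below the DMSO livers (9.17% of all) and at 5 above (8.66% of all). The list means in polysome RNA were 10.61 to 10.63 in rapamycin and 10.71 to 10.75 in DMSO livers. Total RNA of DMSO 1 and DMSO 3 was lowest for the oxidative phosphorylation list, at 11.09 and 10.84, against 11.50 to 11.71 in the rapamycin livers and 11.55 in DMSO 2. The part of these total RNA levels in the result was not tested.

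**Figure D4:**
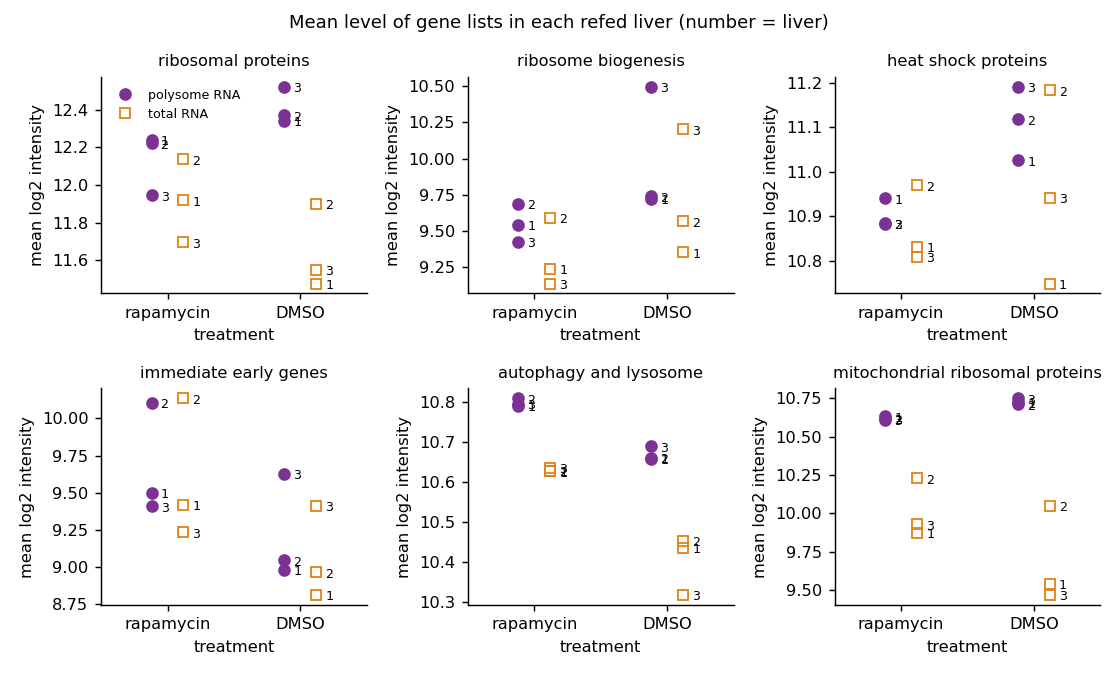
Mean log2 intensity (y axis) of 6 gene lists in rapamycin and DMSO livers (x axis), with filled circles for polysome RNA, open squares for total RNA and the liver number beside each. In polysome RNA the ribosomal protein mean is 11.94 to 12.24 in rapamycin and 12.34 to 12.52 in DMSO livers, whereas in total RNA the treatments overlap.

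Genes that build ribosomes had negative differences in both fractions. Of 56 ribosome biogenesis genes 54 were below 0 in polysome RNA, with a median of −0.44 there and −0.42 in total RNA, and the median effect on polysome minus total RNA was −0.04. In polysome RNA 12 were lower (4.72% of all clusters) and 1 higher (4.35% of all) at the unadjusted threshold, and at 24 the rapamycin livers lay below the DMSO livers (9.17% of all). Nop56, a core protein of the box C/D snoRNPs that guide rRNA methylation, was at 10.25, 10.37 and 10.17 in the rapamycin livers and at 10.95, 11.07 and 11.71 in the DMSO livers, a difference of −0.98 ± 0.21 (SE). Emg1, a methyltransferase of the 18S rRNA, differed by −0.69 ± 0.14 and Rrp15 by −0.64 ± 0.20. DMSO 3 was the highest liver for all 3 genes. The list means were 9.54, 9.69 and 9.42 in the rapamycin livers and 9.72, 9.74 and 10.50 in the DMSO livers. Without DMSO 3 the median was −0.18 with 11 genes lower (4.74% of all clusters). Without both rapamycin 2 and DMSO 3 it was −0.27 with 24 genes lower (4.84% of all). The count was 4, 6 and 2 without rapamycin 1, 2 and 3 in turn, where 3.17%, 2.84% and 2.99% of all clusters were lower. It was 20 without DMSO 1 (4.91% of all).

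Initiation factors and tRNA synthetases had smaller negative medians. Of 26 initiation factors 24 were below 0 (median −0.15), 4 were lower (4.72% of all clusters) and 0 higher (4.35% of all) at the unadjusted threshold, and 11 had rapamycin livers below DMSO livers (9.17% of all). Without DMSO 3 their median was −0.06. Eif5, the GTPase-activating factor of start codon recognition, was at 11.86, 11.90 and 11.90 in the rapamycin livers and at 12.11, 12.16 and 12.32 in the DMSO livers, a difference of −0.31 ± 0.08 (SE). Eif4e, the cap-binding protein that 4E-BPs sequester, was at 10.88, 10.78 and 10.63 in the rapamycin livers and at 11.03, 10.97 and 11.42 in the DMSO livers, a difference of −0.38 ± 0.15. In both genes the groups do not overlap, but both were named for their small p within the list, which favours this. Of 22 aminoacyl-tRNA synthetases and their partners 15 were below 0 (median −0.22), with 4 lower (4.72% of all) and 1 higher (4.35% of all). Hars1, the histidyl-tRNA synthetase, differed by −0.49 ± 0.13. The median of the synthetases changed sign without DMSO 3, to 0.01, and was −0.08 without both rapamycin 2 and DMSO 3.

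Cytosolic heat shock proteins and their cochaperones formed another group of lower values. Of 34 members 31 were below 0, with a median of −0.16, 12 lower (4.72% of all clusters) and 0 higher (4.35% of all) at the unadjusted threshold and 15 with rapamycin livers below DMSO livers (9.17% of all). The counts lower ran from 9 to 12 with any 1 liver left out and stood at 11 without both rapamycin 2 and DMSO 3. Besides Stip1 and Chordc1 these were led by Dnaja2, an HSP40 of the cytosol, at −0.43 ± 0.11 (SE), and Ahsa2, an activator of the HSP90 ATPase, at −0.69 ± 0.18. The stress-inducible HSP90 gene Hsp90aa1 was at 11.91, 11.97 and 11.89 in the rapamycin livers and at 12.13, 12.25 and 12.42 in the DMSO livers, with no overlap. Chaperones and translocon subunits of the endoplasmic reticulum (25 members) had a median of −0.12 with 3 lower (4.72% of all) and 0 higher, and the median was −0.02 without rapamycin 3.

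Immediate early genes, which code for transcription factors and feedback regulators induced soon after a stimulus, had positive differences. Of 43 members 40 were above 0, with a median of 0.39 in polysome RNA and 0.45 in total RNA. In polysome RNA 11 were higher (4.35% of all clusters) and 0 lower (4.72% of all) at the unadjusted threshold. At 14 the rapamycin livers lay above the DMSO livers (8.66% of all). Egr1, a zinc finger transcription factor, was at 12.10, 12.13 and 11.42 in the rapamycin livers and at 9.68, 10.87 and 10.29 in the DMSO livers, a difference of 1.60 ± 0.33 (SE). Klf2, a Krüppel-like factor, was at 9.13, 9.37 and 8.88 in the rapamycin livers and at 8.45, 8.41 and 8.22 in the DMSO livers, a difference of 0.77 ± 0.15. The phosphatase Dusp1, which inactivates MAP kinases, differed by 0.52 ± 0.12 and the AP-1 subunit Jund by 0.53 ± 0.12. The livers did not overlap for any of these 4, the members of the list with the smallest unadjusted p, a choice that favours such separation.

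The livers that stand apart were the highest of their treatment for other members of that list. Junb was at 10.36, 11.55 and 9.60 in the rapamycin livers and at 8.35, 8.32 and 10.84 in the DMSO livers. Myc was at 9.17, 10.72 and 8.75 in the rapamycin livers and at 7.84, 8.34 and 9.34 in the DMSO livers. Without rapamycin 2 and DMSO 3, 24 of the 43 were higher at the unadjusted threshold (5.25% of all clusters), with a median of 0.37. The count was 7 without DMSO 2 (4.01% of all clusters) and 19 without DMSO 3 (4.76% of all). The median was 0.20 without rapamycin 2 and 0.26 without DMSO 2.

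Genes of autophagy, the self-digestion that mTORC1 restrains, and of lysosomes had small positive values. Of 40 members 33 were above 0 with a median of 0.12, 8 were higher (4.35% of all clusters) and 0 lower (4.72% of all) at the unadjusted threshold, and the livers were separated upward at 11 (8.66% of all) and downward at 2 (9.17% of all). Ulk1, the kinase that starts autophagy and is a substrate of mTORC1, was at 10.89, 11.35 and 10.92 in the rapamycin livers and at 10.23, 10.22 and 10.44 in the DMSO livers, a difference of 0.76 ± 0.15 (SE). Gabarapl1, a ubiquitin-like protein of the autophagosome membrane, was at 11.95, 12.04 and 11.90 in the rapamycin livers and at 11.36, 11.31 and 11.59 in the DMSO livers, a difference of 0.54 ± 0.10. Neither gene has overlapping livers, but both were named for their small p within the list, which favours this. Map1lc3b, a related membrane protein, differed by 0.28 ± 0.07 and the lipid kinase Pik3c3 by 0.39 ± 0.12. The list means were 10.79, 10.81 and 10.79 in the rapamycin livers and 10.66, 10.66 and 10.69 in the DMSO livers. Without rapamycin 2 and DMSO 3 the count higher was again 8 (5.25% of all). It was 4, 5 and 3 without rapamycin 1, rapamycin 2 and DMSO 1 in turn, where 2.64%, 2.88% and 3.9% of all clusters were higher.

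Of the fasting genes, Pck1 and Igfbp1 had the largest positive differences after Ephx2. Pck1 was at 12.21, 12.31 and 10.96 in the rapamycin livers and at 9.56, 9.98 and 9.67 in the DMSO livers, a difference of 2.09 ± 0.36 (SE; 4.25-fold, adjusted p = 0.440 in limma). Every rapamycin liver is above every DMSO liver, with rapamycin 3 the lowest of its group. Igfbp1 was at 12.003, 13.291 and 10.783 in the rapamycin livers and at 9.931, 8.889 and 11.120 in the DMSO livers, a difference of 2.05 ± 0.75 with overlap. The difference of Pck1 ran from 1.84 to 2.52 with any 1 liver left out, and that of Igfbp1 from 1.41 to 2.67. In total RNA Pck1 differed by 1.76 and Igfbp1 by 2.12. Their effects on polysome minus total RNA were 0.33 and −0.08. The gluconeogenesis and fasting list (28 members) had a median of 0.21 with 5 higher (17.9%, against 4.35% of all clusters) and 2 lower (7.14%, against 4.72%) at the unadjusted threshold. The median was 0.13 without rapamycin 2 and DMSO 3. Among the others, Pc (pyruvate carboxylase) differed by 0.31 ± 0.11 and Gpt (alanine aminotransferase) by 0.49 ± 0.17. Sds, the serine dehydratase that feeds serine into gluconeogenesis, went the other way, with 9.39, 9.55 and 9.43 in the rapamycin livers and 11.02, 10.61 and 9.81 in the DMSO livers, a difference of −1.02 ± 0.29. Ppargc1a, a coactivator of gluconeogenic genes, and Fgf21, a fasting hormone of the liver, overlapped between treatments at 0.28 ± 0.28 and 0.09 ± 0.71.

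Genes of fatty acid oxidation and ketogenesis (30 members) had a median of 0.10 with 5 higher at the unadjusted threshold (16.7%, against 4.35% of all clusters) and 0 lower (4.72% of all). The median was 0.03 without DMSO 3. Among the higher ones were Bdh1, the ketone body dehydrogenase, at 0.27 ± 0.08 (SE), and Acadvl, the very long chain acyl-CoA dehydrogenase, at 0.24 ± 0.08. Cpt1a, which admits fatty acids to mitochondria, was at 12.17, 12.03 and 12.29 in the rapamycin livers and at 11.94, 11.86 and 11.16 in the DMSO livers. Sugar and fatty acid synthesis genes of the fed liver (30) had a median of 0.10 with 1 higher and 1 lower (3.33% each), and the median was 0.00 without DMSO 3. The higher one was Me1, the malic enzyme that supplies NADPH, at 0.43 ± 0.10. The lower one was Elovl6, a fatty acid elongase, with 8.22, 8.22 and 10.26 in the rapamycin livers and 10.71, 11.07 and 9.74 in the DMSO livers. Rapamycin 3 overlaps the DMSO livers there. Fasn, the fatty acid synthase, differed by −0.16 ± 0.31 and Pklr, the liver pyruvate kinase, by 0.38 ± 0.36, both with overlap. Cholesterol synthesis and uptake (20) had a median of −0.05 with 0 in either direction. Bile acid synthesis and transport (23) had 21 members above 0, a median of 0.20 and 2 higher (8.7%, against 4.35% of all clusters), Hsd3b7 and the bile salt export pump Abcb11. The list means were 11.63, 11.44 and 11.70 in the rapamycin livers and 11.57, 11.60 and 11.04 in the DMSO livers. DMSO 3 is the lowest, and the median was 0.03 without it and 0.07 without both rapamycin 2 and DMSO 3. The urea cycle and amino acid breakdown list (34) had a median of 0.05 with 5 higher (14.7%) and 2 lower (5.88%, against 4.72% of all clusters). Its median changed sign without DMSO 3, to −0.04.

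Components of the pathway itself had small differences. Mtor, the kinase, was at 9.92, 9.78 and 9.95 in the rapamycin livers and at 9.73, 9.72 and 9.44 in the DMSO livers, a difference of 0.25 ± 0.12 (SE). Rptor, the subunit that binds substrates in mTORC1, differed by 0.00 ± 0.10. Eif4ebp1, the gene of 4E-BP1, differed by 0.25 ± 0.12 and Rps6kb1, the gene of an S6 kinase, by −0.14 ± 0.21, both with overlap. Of 25 genes of mTOR complexes and regulators 14 were above 0 (median 0.00), with 0 higher and 2 lower at the unadjusted threshold (8%, against 4.72% of all clusters): Ddit4, an mTORC1 inhibitor also called REDD1, at −0.36 ± 0.13 and the GTPase Rragc at −0.29 ± 0.11. The 9 mTOR translation targets had a median of 0.15 with 0 higher and 2 lower (22.2%, against 4.72% of all clusters), Rps6 and Eif4e. Their median was 0.04 without rapamycin 3.

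Among the remaining lists, ATF4 targets (29 members) had a median of 0.07 with 4 higher (13.8%, against 4.35% of all clusters) and 3 lower (10.3%, against 4.72%). The median changed sign without rapamycin 2, to −0.03. The higher ones included Psat1 and Phgdh, enzymes of serine synthesis, at 1.10 ± 0.30 (SE) and 0.71 ± 0.23, and the lower ones Psph, the last enzyme of that route, at −0.57 ± 0.14. Psph was at 8.72, 8.80 and 9.03 in the rapamycin livers and at 9.59, 9.40 and 9.28 in the DMSO livers, so the 3 enzymes of 1 route did not share a direction. Asns, the asparagine synthetase, differed by 0.46 ± 0.32 with overlap. The insulin and IGF axis (29) had a median of 0.08 with 3 higher (10.3%, against 4.35% of all clusters) and 1 lower (3.45%, against 4.72%). The 16 circadian clock genes had a median of 0.00 with 1 higher, Npas2, and 1 lower, Cry1 (6.25% each). G1 cyclins and cell cycle inhibitors (19) had a median of −0.02 with 1 higher and 1 lower (5.26% each), and acute phase proteins (27) one of 0.06 with 0 in either direction.

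**Figure D5:**
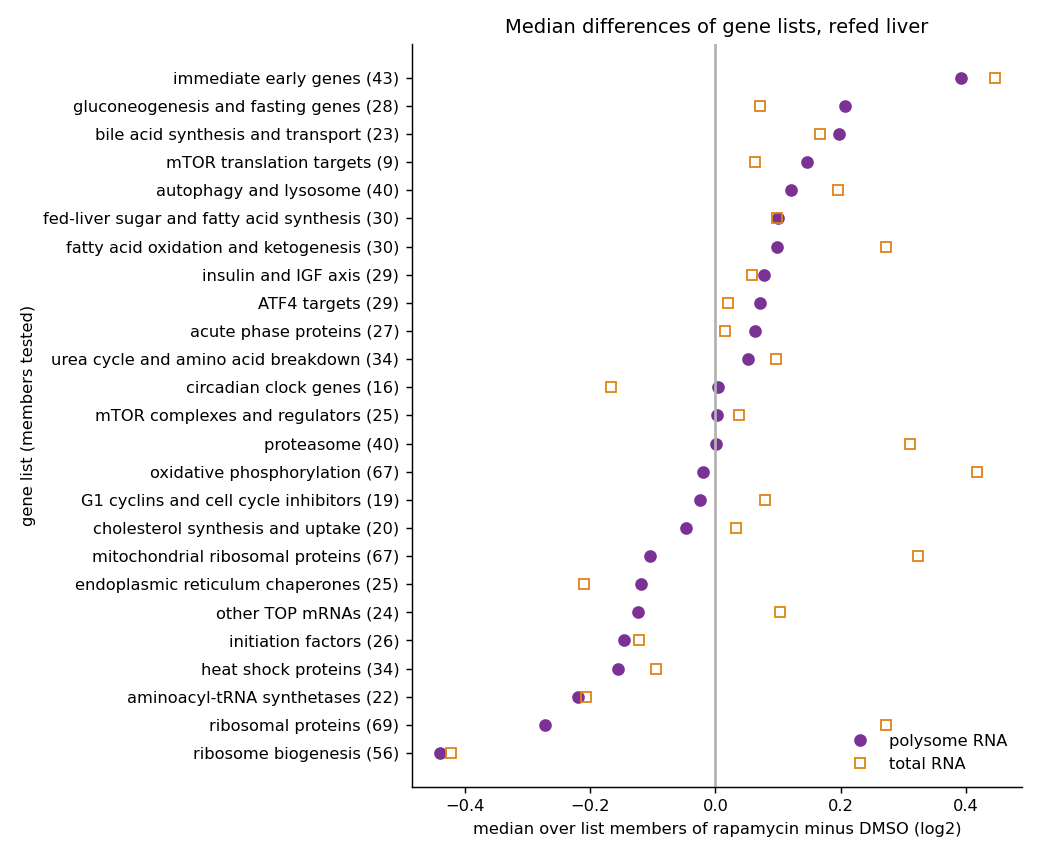
Median over the tested members of each gene list (y axis, number tested in brackets) of the difference between rapamycin and DMSO livers on the log2 scale (x axis), with filled circles for polysome RNA and open squares for total RNA. Ribosomal proteins are at −0.27 in polysome and 0.27 in total RNA, whereas ribosome biogenesis genes are at −0.44 and −0.42 and immediate early genes at 0.39 and 0.45.

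Markers of other liver cells were compared in polysome RNA of the same livers. In bulk tissue, fewer cells of a type and less RNA per cell cannot be told apart. Of 15 endothelial markers 13 were above 0 (median 0.13), 2 were higher at the unadjusted threshold (4.35% of all clusters), Plvap and Eng, and 5 had rapamycin livers above DMSO livers (8.66% of all). Their summed intensity was 13655 to 14841 in the rapamycin livers and 12528 to 13530 in the DMSO livers. Of 9 red blood cell genes 7 were above 0, with 2 higher (Hbb, Alas2; 4.35% of all clusters) and 1 lower (Gata1; 4.72% of all). Their summed intensities, in which the brightest members weigh most, were 8029 to 8312 in the rapamycin livers and 6532 to 7178 in the DMSO livers. Mean log2 levels of the list were closer, at 7.83 to 7.97 and 7.74 to 7.81. Macrophage (17), stellate cell (19) and bile duct (8) markers had medians of 0.05, 0.01 and 0.00 with 0 past the unadjusted threshold. In total RNA these 3 medians were 0.34, −0.05 and 0.09, against 0.03 over all clusters. Endothelial markers had a total RNA median of 0.08 with 9 of 15 above 0, and red blood cell genes one of 0.20 with 8 of 9 above 0. Lymphocyte (11) markers had a median of 0.04 with 1 higher (9.09%, against 4.35% of all clusters) and 1 lower (9.09%, against 4.72%). Granulocyte (11) markers had one of 0.16 with 1 higher (9.09%). The 25 hepatocyte markers had a median of 0.05 with 1 higher (4%, against 4.35% of all clusters). The part of endothelial and red blood cell RNA in the gene group values above was not tested.

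The effect in refed liver was set beside that in the other models by a test of the difference between effects. The 3 hepatectomy DMSO arrays carry a time point label of refeeding, and their titles, which name hepatectomy, were used. Against hepatectomy 1 cluster passed an adjusted p of 0.05 (0.00921% called), Psat1, the phosphoserine aminotransferase of serine synthesis. In refed livers Psat1 was at 11.15, 10.62 and 10.54 with rapamycin and at 9.32, 9.40 and 10.28 with DMSO, a difference of 1.10, and after hepatectomy the difference was −1.92. The effects differed by 3.02 (adjusted p = 0.0382 in limma). Leaving out any 1 of 9 of the 12 livers brought that adjusted p above the threshold, with the value itself between 2.83 and 3.14. Phgdh, which takes the first step of the same route, had effects of 0.71 in refed liver and −1.52 after hepatectomy (adjusted p = 0.0618). The ribosomal protein list had medians of −0.27 in refed and −0.35 in hepatectomy polysome RNA, and 0 of 69 members had an unadjusted p under 0.05 for the difference.

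Against fetal liver 0 clusters passed the adjusted threshold (0% called, smallest adjusted p 0.110). Cry1 had that value, with effects of −1.24 in refed adult and 0.11 in fetal polysome RNA. The ribosomal protein median was −0.27 in refed adult and −0.01 in fetal polysome RNA, where the dose and the time after injection differ. H19 had effects of −2.06 in refed adult and −0.07 in fetal liver, and its adjusted p was 0.892.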

How the data were processed

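The values were the authors' deposited array intensities on a linear scale, which had gone through RMA, per the submitters' processing notes. Its version and which arrays it was run on are not stated in those notes. The log2 of the deposited intensities was taken without a pseudocount. Symbols came from the platform annotation (15209 clusters with 1 symbol, 306 with several, tested but not named, 13311 unnamed) and Entrez numbers in RefSeq's GRCr8 table (15178 matched). Tested clusters had a symbol and a mean log2 intensity over 40 arrays at or above the 30th percentile, 6.70. Rapamycin was compared with DMSO in limma 3.58.1 (R 4.3.3) over the 6 arrays with an intensity trend, 4 residual degrees of freedom and two-sided p-values adjusted by Benjamini-Hochberg over 10860 clusters. Polysome minus total RNA was fitted on differences between arrays of the same treatment and replicate number, and differences between models as interactions. The fit was tested on simulated data.

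Lists held the brightest cluster of each member. Named are the 12 smallest p in each direction and, from each of the 33 lists, up to 4 members with the smallest unadjusted p. Also named are genes set down for reporting (7 of which failed the filter and were not analysed here). The 8 of largest spread and the 6 of smallest p in each comparison of effects were added. Members and lists were chosen with earlier results of these data known. Precision is limited by the number of arrays, which have no read depth. The alternatives tried were leaving out livers, a replicate block, wider fits, other normalizations, filters, weights and a pseudocount of 32.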

Additional observations from a re-analysis of the deposited data

Results flagged for a closer look

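The rapamycin effect on Psat1 differed between refed and hepatectomy polysome RNA by 3.02 on the log2 scale in the test of that difference (adjusted p = 0.0382, limma), with effects of 1.10 in refed liver and −1.92 after hepatectomy. It was the 1 cluster of 10860 past that threshold. The models differ in the surgery, the fast before refeeding and the time after the injection, which cannot be told apart here. The groups of 3 livers are too small for a test of single outlying values.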

How the results depend on the processing

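Several counts and a few directions depended on the processing, and the cause was not tested. Clusters past the adjusted threshold were 0 with the 6 arrays weighted equally, 1 with array weights on the same 6 and 5 with all 40 arrays in the fit. Cry1 (adjusted p = 0.00783), Klf2, Dph5 and Ahsa2 passed over 40 arrays, and Akr7a3 with weights (limma). At the unadjusted threshold the counts higher and lower were 472 and 513, against 247 and 279 with the 12 refed arrays, 891 and 910 with weights, and 288 higher with 40 arrays. With any 1 liver left out they ran from 287 to 517 and from 308 to 533. Ribosomal proteins lower numbered 19 with 12 arrays and 26 with 40, and 22 to 44 with 1 liver left out. Ribosome biogenesis genes lower numbered 6 and 26, 24 without rapamycin 2 and DMSO 3, and 2 to 20. Heat shock genes lower numbered 7 with 40 arrays, and their median ran from −0.22 to −0.12. Immediate early genes higher numbered 23 with weights and 24 without rapamycin 2 and DMSO 3, and 7 to 19. Autophagy genes higher numbered 4 with 12 arrays and 3 with 40, and 3 to 6, with a median of 0.14 after median centring and of 0.11 to 0.14 with 1 liver left out. Of the 33 list medians, 14 changed sign with some 1 liver left out: tRNA synthetases, ATF4 targets, mTOR complexes, urea cycle, cholesterol, clock, G1 cyclins, acute phase, oxidative phosphorylation, proteasome, macrophage, stellate, bile duct and lymphocyte genes. For polysome minus total RNA, calls ran from 0 to 1714 with 1 liver left out, and the ribosomal protein median and count were −0.41 and 19 without rapamycin 2 and DMSO 3. Calls for refed against hepatectomy ran from 0 to 135 and for refed against fetal from 0 to 4.

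No label says that a rapamycin and a DMSO liver of the same replicate number belong together. Deviations from the group means correlated at 0.39, −0.62 and −0.61 for numbers 1, 2 and 3. These values cannot decide on a pairing, because the livers that stand apart, rapamycin 2 and DMSO 3, carry different numbers. With the replicate number as a block, 0 clusters passed the adjusted threshold, 261 were higher and 257 lower at the unadjusted one, 21 ribosomal proteins and 6 biogenesis genes were lower and 3 autophagy genes higher. The block gave 586 calls for polysome minus total RNA and 0 for refed against hepatectomy, where Psat1 was at 3.02 with an adjusted p of 0.130 (limma). Of 132 named genes 7 changed sign in some alternative. G6pc1 was at −0.61 with array weights, −0.0234 with a pseudocount of 32, −0.28 without rapamycin 2 and DMSO 3 and −0.96 to 0.67 with 1 liver left out. Fgf21 was at −0.75 with weights and −0.14 without those livers, and Rptor at −0.0105 and −0.0136. Alb was at −0.0013 after cyclic loess. With 1 liver left out, Fgf21 ran from −0.60 to 0.75, Rptor from −0.0369 to 0.0483, Ppargc1a from −0.0064 to 0.47, Fasn from −0.39 to 0.17 and Rps6kb1 from −0.25 to 0.0623.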
